A study of Mus musculus with 8 samples.

Results

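Genes that copy DNA and genes that divide the cell were followed in mouse hearts with myocardial infarction (MI), in which heart muscle dies for want of blood. The list held 46 genes chosen by name, 20 that act in DNA replication and 26 that act in mitosis. No threshold on these data was used, but earlier results of these data were known when the genes were chosen. Each gene was taken as its single locus in the deposited annotation, and 45 of the 46 had one, out of 35299 loci in all. The mitotic kinase gene Plk1 shares its locus with Dctn5 and was left out, which left 25 mitotic genes.

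RNA was taken from hearts of C57BL/6J mice aged 12 weeks, 2 weeks after surgery, from the border zone, the muscle beside the infarct. Mice had either sham surgery (Sham, 4 libraries) or an infarct (MI, 4 libraries), and no other treatment or allele is named for either group. The whole piece of tissue was sequenced, so a level is an average over muscle cells, fibroblasts, vessel cells and immune cells, and more cells of a type cannot be told apart from more RNA per cell. Groups follow the sample titles and the treatment field. Other fields differ from them: the source field reads Sham for all 8 libraries, the descriptions of MI 1 to 3 name a sham infarct, and that of Sham 4 names an infarct without the word sham. The titles of the Sham libraries also carry a remark on a reanalysis that those of the MI libraries lack, so that remark and the group cannot be told apart. The libraries held 108 to 161 M reads (M, mega) in Sham and 165 to 190.2 M in MI, and 1 read was worth 0.663 to 1.58 normalised reads. The first principal component over all loci held 61.9% of the variance and separated the groups, with MI 2 (34.8) nearer to Sham (-65.2 to -42.6) than the other MI libraries (62.4 to 63.2). Summed markers of cardiomyocytes, the heart's muscle cells, were high in every library, at 1152120 to 1903140 normalised reads per kb of exon.

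Before a cell copies its genome, the origin recognition complex, Cdc6 and Cdt1 load the ring of Mcm proteins onto DNA, and Cdc45 and the GINS complex then switch that ring on as a helicase. Cyclin E opens this phase, cyclin A carries it forward, and cyclin B with Cdk1 drives the cell into mitosis, where the kinetochore ties chromosomes to the spindle and the cytokinesis machinery separates the daughters. Transcription of the replication genes is known to depend on E2F factors that peak at the entry to S phase, and that of many mitotic genes on the DREAM and B-Myb complexes, which act through a short promoter element called CHR. Most heart muscle cells of adult mice do not divide, while fibroblasts, endothelial cells and immune cells can.

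Promoters of 6 members are printed here, with elements through which the 2 arms are known to be regulated marked where they occur. In each arm they are the 2 called members with the largest difference between the groups and the member with the highest level per kb over the mean of both groups, among genes with an entry in the table. Each is the 250 bases before the transcription start, 5′ to 3′ on the gene's strand, from RefSeq on GRCm38.p6. Capitals mark matches on either strand to the E2F-type cores TTCCCGC or TTCGCGC or TTGCCGC or TTGGCGC, the CHR letters TTTGAA or TTCGAA, and the CCAAT box. The positions are chr12:24708004-24708253 on the plus strand for Rrm2, chr1:128359706-128359955 on the minus strand for Mcm6, and chr2:132253181-132253430 on the minus strand for Pcna. For the mitotic genes they are chr13:100786487-100786736 on the minus strand for Ccnb1, chr10:69352913-69353162 on the minus strand for Cdk1, and chr5:30666636-30666885 on the plus strand for Cenpa.
Rrm2: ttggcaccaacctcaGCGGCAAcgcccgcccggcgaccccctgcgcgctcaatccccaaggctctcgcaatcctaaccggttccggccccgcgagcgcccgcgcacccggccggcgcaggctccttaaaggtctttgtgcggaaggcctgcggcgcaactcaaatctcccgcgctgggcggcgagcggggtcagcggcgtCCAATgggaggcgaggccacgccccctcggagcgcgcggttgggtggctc
Mcm6: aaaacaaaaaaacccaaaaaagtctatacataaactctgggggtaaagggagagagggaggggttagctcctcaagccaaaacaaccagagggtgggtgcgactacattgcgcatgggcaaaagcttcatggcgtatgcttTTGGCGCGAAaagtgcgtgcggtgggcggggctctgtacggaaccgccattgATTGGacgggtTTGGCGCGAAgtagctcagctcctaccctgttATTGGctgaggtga
Pcna: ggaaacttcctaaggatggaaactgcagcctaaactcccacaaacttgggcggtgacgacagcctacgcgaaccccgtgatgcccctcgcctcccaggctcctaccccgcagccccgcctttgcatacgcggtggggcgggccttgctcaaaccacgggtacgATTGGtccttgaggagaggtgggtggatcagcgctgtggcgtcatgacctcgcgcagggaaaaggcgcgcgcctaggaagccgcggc
Ccnb1: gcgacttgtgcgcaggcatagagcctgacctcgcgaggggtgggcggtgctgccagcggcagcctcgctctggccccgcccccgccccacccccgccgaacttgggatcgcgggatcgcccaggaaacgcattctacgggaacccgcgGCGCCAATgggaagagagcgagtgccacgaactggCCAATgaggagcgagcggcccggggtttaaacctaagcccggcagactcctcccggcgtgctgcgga
Cdk1: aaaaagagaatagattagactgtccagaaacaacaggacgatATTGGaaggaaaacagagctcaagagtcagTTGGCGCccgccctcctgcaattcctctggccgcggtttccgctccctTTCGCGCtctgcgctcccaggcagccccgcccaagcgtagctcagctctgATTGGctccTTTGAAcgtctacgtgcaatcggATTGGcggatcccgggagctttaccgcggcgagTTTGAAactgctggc
Cenpa: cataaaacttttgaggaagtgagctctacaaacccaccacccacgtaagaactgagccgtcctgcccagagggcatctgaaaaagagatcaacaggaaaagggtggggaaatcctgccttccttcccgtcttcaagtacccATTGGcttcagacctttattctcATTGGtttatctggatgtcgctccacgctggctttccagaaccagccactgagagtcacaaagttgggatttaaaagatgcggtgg
Mcm6 held 4 E2F-type cores and 2 CCAAT boxes, and Cdk1 held 2 E2F-type cores, 2 CHR matches and 3 CCAAT boxes. Pcna and Cenpa held CCAAT boxes only, and Ccnb1 held 1 E2F-type core and no CHR match. Matches overlap each other in 2 places in Mcm6 and in 1 place in Ccnb1. Of the 45 genes, 35 had an entry, with 38 promoters between them. An E2F-type core stood in 8 of 16 replication promoters (50%), in 4 of 22 mitotic promoters (18.2%) and in 7.89% of all 32851 promoters in the table. The CHR letters stood in 3 of 16 replication promoters (18.8%), in 10 of 22 mitotic promoters (45.5%) and in 17.1% of all promoters. CCAAT was found in 11 replication promoters (68.8%), 18 mitotic promoters (81.8%) and 33.9% of all. The share with an E2F-type core was thus higher in the replication arm and the share with CHR letters higher in the mitotic arm, as a description of letters in a window, with no test. Top2a had the most matches, with 4 CHR matches and 6 CCAAT boxes, while no E2F-type core, CHR or CCAAT match stood in the windows of Anln, Birc5, Tyms, Cdt1, Chek1, Ccne1, Nusap1 and Mad2l1. Mcm4, Gins1, Gins2, Pole, Ccne2, Ccna2, Cdc25c, Aurkb, Kif20a and Tpx2 had no entry matched.

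Mitotic genes were higher in MI as a group, whereas most replication genes moved little. Of the 25 mitotic genes 23 rose, 1 fell (Cenpf) and 1 was not called (Cenpa), where called means an adjusted p under 0.05 from limma across all 19186 loci tested. Of the 20 replication genes 7 rose, 1 fell (Gins1) and 12 were not called. Across all loci tested 20.8% were called higher and 20.1% lower in MI. The median difference, MI minus Sham on the log2(value + 1) scale, was 1.64 over the mitotic genes, 0.29 over the replication genes and -0.02 over all loci. A rise of at least 2-fold was called for 21 of the 25 mitotic genes and for 1 of the 20 replication genes, Rrm2, against 9.04% of all loci. The 4 MI libraries all lay above the 4 Sham libraries for 22 mitotic and 6 replication genes, and all below them for 1 gene of each arm. Over all loci 19.7% were separated upward and 20.0% downward. Leaving out libraries changed the number of replication genes that rose, from 7 to 3 without MI 3 or without Sham 4 and to 4 without MI 4 or without Sham 2, while the mitotic number stayed between 22 and 24 in every fit run. Scaling the libraries to equal totals in place of the deposited size factors gave 15 replication genes higher and 0 lower, and moved all loci from 3999 higher and 3855 lower to 8525 (44.4%) and 1498 (7.81%). That scaling raised the median of all loci by 0.30, against which the replication median became 0.60.

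**Figure D1:**
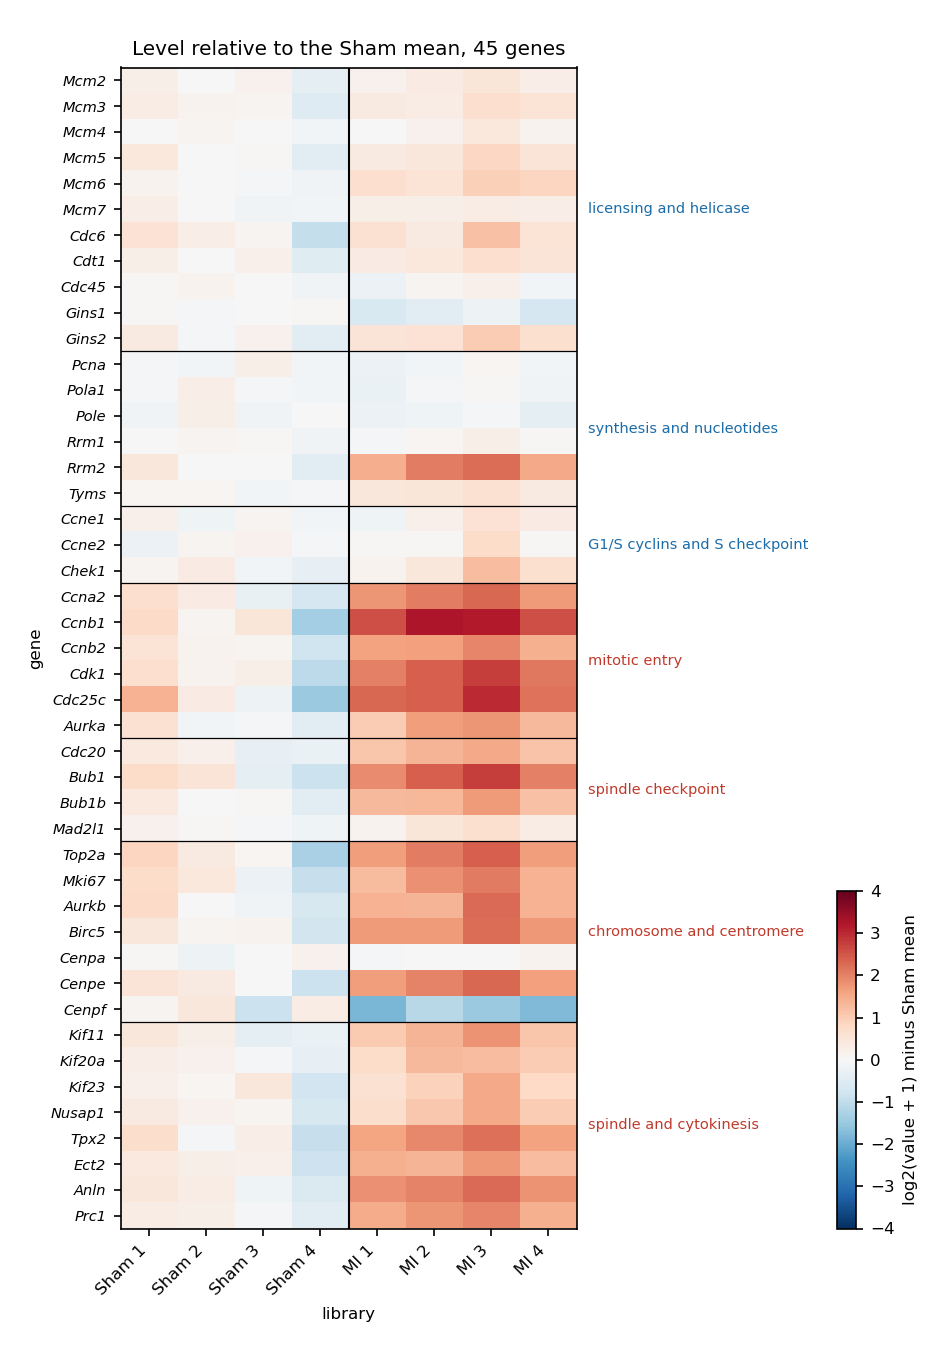
Level of each of the 45 genes (rows, grouped by role) in each of the 8 libraries (columns), as log2(value + 1) minus the mean of the Sham libraries, with red above and blue below that mean. The mitotic rows are red in all 4 MI libraries apart from Cenpa, Cenpf and Mad2l1, and the replication rows are pale apart from Rrm2.

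The helicase genes moved by less than 1 on the log2 scale. Of the 11 licensing and helicase genes 5 rose, 1 fell and 5 were not called, with a median difference of 0.47. These are 45.5% higher and 9.09% lower, against 20.8% and 20.1% of all loci tested. Mcm6, a subunit of the Mcm ring (chr1:130228168-130256233 in mm9), read 1343, 1237, 1166 and 1108 normalised reads in Sham 1 to 4 and 1940.1, 1782, 2327 and 2186 in MI 1 to 4. The groups did not overlap, and the difference was 0.76 ± 0.10 (log2, SE, n = 4 per group, adjusted p = 2.69e-04). Mcm2, another subunit of the same ring, read 1369, 1129.7, 1291 and 886 in Sham and 1302, 1463, 1629 and 1394 in MI. Its groups overlapped, because Sham 1 lay above MI 1, and its difference of 0.32 ± 0.14 was not called (adjusted p = 0.0801). Of the other ring genes Mcm3 rose by 0.47 and Mcm5 by 0.54, while Mcm4 (0.18) and Mcm7 (0.26) were not called. The ring contains its subunits in equal numbers, and in MI their levels per kb of exon ran from 237 for Mcm5 to 606 for Mcm7. This range depends on the locus lengths used. The loci of Mcm7 and Mcm2 have 2.396 and 3.287 kb of exon, where GENCODE gives 4.426 and 6.956 kb.

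The loaders Cdc6 and Cdt1 and the activators were mixed. Cdt1, which brings the ring to DNA, rose by 0.49 ± 0.17 (adjusted p = 0.0384). Cdc6, which works with it, differed by 0.68 ± 0.31 and was not called (adjusted p = 0.105), with a low value in Sham 4 (47.3) against 98.9 to 137 in the other Sham libraries. Gins2, one of the GINS subunits, read 119, 87.7, 106 and 67.8 normalised reads in Sham and 133, 140.0, 189 and 146 in MI. All 4 MI values were above all Sham values, by 0.69 ± 0.20 on the log2 scale (adjusted p = 0.0206). Gins1, its partner in the same complex (chr2:150735337-150757014 in mm9), read 232, 209.5, 223 and 230.2 in Sham and 144, 165, 194 and 139 in MI. Here every MI library was below every Sham library, and the gene fell by 0.49 ± 0.14 on the log2 scale (adjusted p = 0.0187). Cdc45, which completes the active helicase, read 407, 437, 391 and 359 in Sham and 337, 432, 455 and 372 in MI. Its groups overlapped throughout, with a difference of -0.01 ± 0.13 (adjusted p = 0.976).

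Several of these calls lay near the threshold. Of the 8 fits that leave out 1 library Mcm3 kept its call in 2, those without Sham 1 and without MI 2, with differences from 0.29 (without Sham 4) to 0.57. It also lost it with no filter on low loci (0.47, adjusted p = 0.0506). Mcm5 lost it without MI 3 (0.44), MI 4 (0.55), Sham 2 (0.54) or Sham 4 (0.39). Cdt1 lost it without MI 2 (0.51), MI 3 (0.43), MI 4 (0.48), Sham 2 (0.50) or Sham 4 (0.33). The call of Gins2 ended without MI 3 (0.58) or Sham 4 (0.54). That of Gins1 ended without MI 1 (-0.44) or MI 4 (-0.42) and with scaling to equal totals (-0.18). The rise of Mcm6 was called in all 17 alternatives.

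Nucleotide supply held the single large rise of the replication arm. Rrm2, the small subunit of ribonucleotide reductase, which makes deoxynucleotides (chr12:25393148-25398972 in mm9), read 432, 314, 309 and 237 normalised reads in Sham and 860.3, 1296, 1504 and 899.7 in MI. The lowest MI library was well above the highest Sham library, and the gene rose by 1.81 ± 0.22 on the log2 scale (adjusted p = 1.28e-04). Its MI mean was 3.53 times its Sham mean. Rrm1, the large subunit of the same enzyme, read 1897, 2054, 1976 and 1712 in Sham and 1849, 1999, 2238 and 1965 in MI. Its groups overlapped and it was not called (0.08 ± 0.09, adjusted p = 0.522). Per kb of exon Rrm1 stood at 409.7 in Sham and 432 in MI, and Rrm2 at 153 and 539.8, so the order of the 2 subunits differed between the groups. Tyms, which makes thymidylate, read 633, 626, 547 and 580.2 in Sham and 808, 838, 910.0 and 771 in MI. It rose by 0.48 ± 0.09 (adjusted p = 0.00247), with no overlap between the groups.

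The polymerase and clamp genes were not called. Pcna, the sliding clamp that holds the polymerases on DNA, had the highest level per kb of all 45 genes, at 3791 in Sham and 3535 in MI. It read 4639, 4431, 5613 and 4426 normalised reads in Sham and 4029, 4374, 5041 and 4373 in MI, a difference of -0.10 ± 0.10 (adjusted p = 0.449). The MI libraries lay within or just below the Sham range. Pola1, the catalytic subunit of the polymerase that starts each strand, differed by -0.11 ± 0.11, and Pole, that of the leading-strand polymerase, by -0.21 ± 0.12.

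Genes of the entry to S phase were not called either. Ccne1, a cyclin E gene, read 238, 181, 221 and 191 normalised reads in Sham and 184, 236, 308 and 257 in MI, a difference of 0.23 ± 0.17 (adjusted p = 0.315). Ccne2, the other cyclin E gene, read 246, 309.8, 321 and 276 in Sham and 297, 297, 475 and 297 in MI (0.22 ± 0.17, adjusted p = 0.339). In both genes the groups overlapped, and MI 3 held the highest value. Chek1, a checkpoint kinase that acts when replication stalls, differed by 0.62 ± 0.24 (adjusted p = 0.0668), with MI 1 (90.8) below Sham 2 (104).

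**Figure D2:**
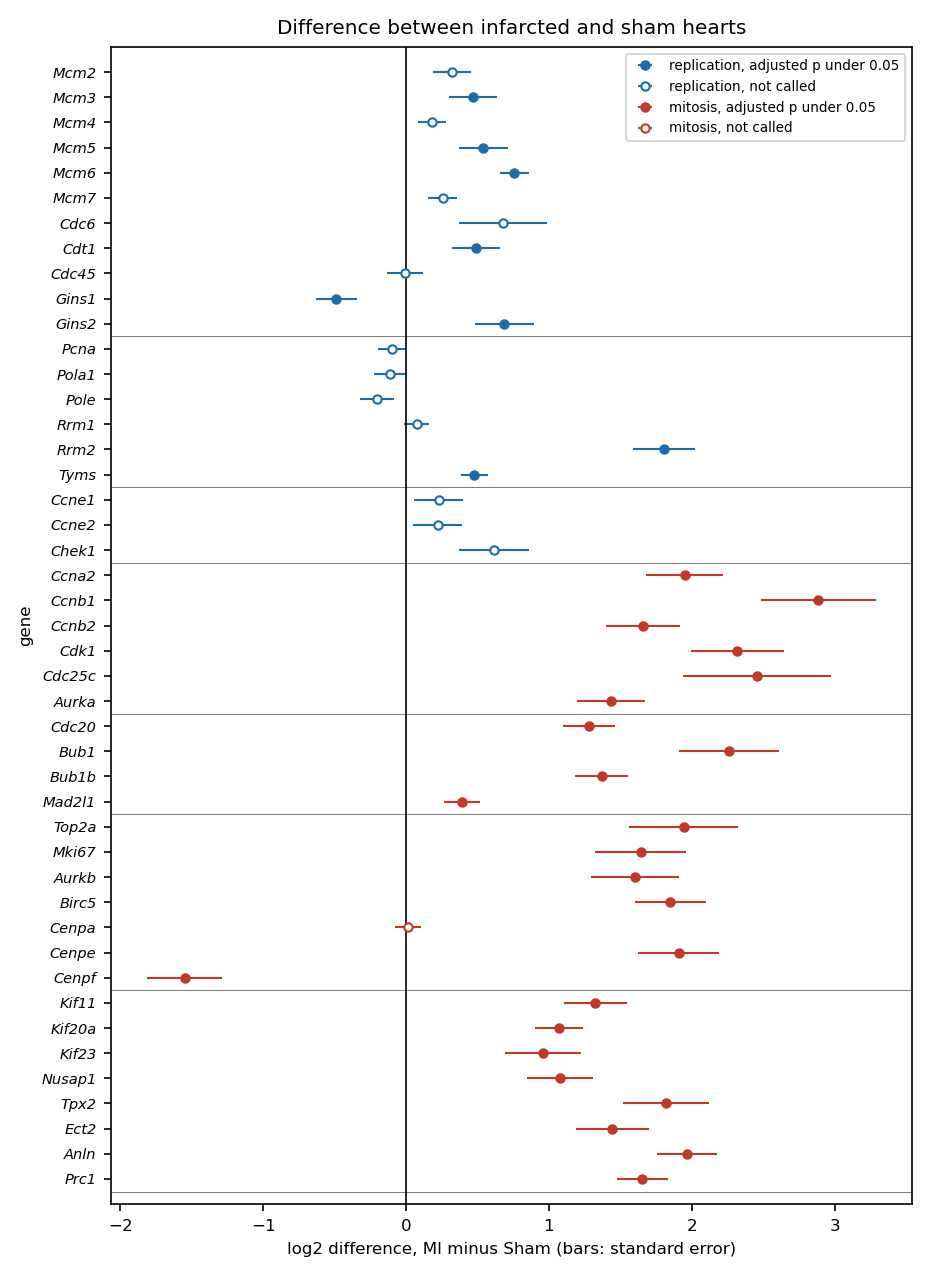
Log2 difference, MI minus Sham, of each of the 45 genes with its standard error, replication genes in blue and mitotic genes in red, filled where the adjusted p is under 0.05. Ccnb1 lies farthest to the right at 2.89 and Cenpf farthest to the left at -1.55, and Rrm2 is the blue point beyond 1.

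The genes of mitotic entry rose most. All 6 rose, with a median difference of 2.13 and with no overlap between the groups in any of them. Of all loci tested 20.8% were called higher and 19.7% were separated upward. Ccnb1, a cyclin B gene (chr13:101548694-101556441 in mm9), read 85.9, 53.5, 69.3 and 18.9 normalised reads in Sham and 305, 474, 455 and 299 in MI. Its difference of 2.89 ± 0.40 (adjusted p = 3.09e-04) was the largest of the 45, and its MI mean was 6.73 times its Sham mean. Cdk1, the kinase that cyclin B activates, read 171, 117, 124 and 50.5 in Sham and 427, 563, 724 and 459 in MI, a rise of 2.32 ± 0.33 (adjusted p = 3.38e-04). The lowest MI library of Cdk1 held more than the highest Sham library by a wide margin, and Sham 4 was the lowest of all 8 libraries for both genes. Ccna2, cyclin A, rose by 1.95, Ccnb2, the other cyclin B gene, by 1.66, and Aurka, a kinase of the centrosome and spindle poles, by 1.44.

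Cdc25c, the phosphatase that removes the inhibitory phosphates from Cdk1, was the lowest member in Sham, at 7.18 normalised reads per kb of exon. It read 29.8, 13.7, 9.09 and 3.15 normalised reads in Sham and 56.3, 60.9, 91.4 and 51.5 in MI, and rose by 2.46 ± 0.52 (adjusted p = 0.00347). These values rest on 25, 12, 8 and 2 reads in Sham and on 59 to 111 reads in MI. The 2 reads of Sham 4 lie under the 3 reads that a count of 0 allows, so the size of this rise is less certain than that of the other entry genes.

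All 4 genes of the spindle checkpoint, which holds the cell until every chromosome is attached, rose, with a median difference of 1.32. Of all loci tested 20.8% were called higher. Bub1, a checkpoint kinase at the kinetochore, read 69.2, 59.2, 31.8 and 22.1 normalised reads in Sham and 154, 222, 284 and 168 in MI (2.26 ± 0.35, adjusted p = 5.95e-04). Bub1b, which codes for BubR1 of the mitotic checkpoint complex, read 244, 190.2, 192 and 137 in Sham and 462, 468, 606 and 419.7 in MI (1.37 ± 0.18, adjusted p = 2.51e-04). In both genes every MI library exceeded every Sham library. Cdc20, the activator that the checkpoint restrains, rose by 1.28. Mad2l1, its Mad2 inhibitor, moved least, with 579, 536, 492 and 456 in Sham and 571, 716, 798 and 638 in MI. MI 1 lay inside the Sham range, and the rise of 0.39 ± 0.13 (adjusted p = 0.0291) was lost without MI 2 (0.37), MI 3 (0.31), Sham 3 (0.37) or Sham 4 (0.34).

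Genes of chromosome structure and the centromere split. Of 7 genes 5 rose, 1 fell and 1 was not called, with a median difference of 1.64. These are 71.4% higher and 14.3% lower, against 20.8% and 20.1% of all loci tested. Top2a, which untangles sister DNA (chr11:98854261-98885503 in mm9), read 762, 538, 441 and 169 normalised reads in Sham and 1325, 1748, 2183 and 1329 in MI, a rise of 1.94 ± 0.38 (adjusted p = 0.00237). The Sham libraries were spread over a wide range, and all 4 lay below the MI libraries. Mki67, the gene of the proliferation antigen Ki-67 that coats mitotic chromosomes, read 1363, 1113, 705 and 432 in Sham and 1993, 2955, 3471 and 2156 in MI (1.64 ± 0.32, adjusted p = 0.00223). It kept the same order of Sham libraries as Top2a, and its groups did not overlap.

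Aurkb, the kinase of the chromosomal passenger complex, read 123, 71.7, 64.8 and 45.7 normalised reads in Sham and 189.6, 184, 350.0 and 190.2 in MI (1.60 ± 0.31, adjusted p = 0.00201). MI 3 stood above the other 3 MI libraries, which lay close together. Birc5, survivin of the same complex, rose by 1.85. Cenpe, a kinesin that moves chromosomes to the spindle's middle, read 155, 140.1, 107 and 59.9 in Sham and 351, 436, 544 and 341 in MI (1.91 ± 0.28, adjusted p = 4.37e-04), again with no overlap.

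Cenpf and Cenpa went apart from the other mitotic genes. Cenpf, a large kinetochore and microtubule protein (chr1:191464493-191511965 in mm9), read 5203, 6630.1, 2675 and 5969 normalised reads in Sham and 1349.5, 2261, 1715 and 1438 in MI. Every MI library was below every Sham library, although Sham 3 stood closer to MI than to the other Sham libraries. The gene fell by 1.55 ± 0.26 on the log2 scale (adjusted p = 9.91e-04), and its MI mean was 0.330 times its Sham mean. Cenpa, the histone variant that marks the centromere (chr5:30968738-30984313 in mm9), read 3488, 2906, 3378 and 3819 in Sham and 3204, 3369.8, 3399.6 and 3710.3 in MI. Its groups overlapped almost fully, with a difference of 0.01 ± 0.09 (adjusted p = 0.911). The locus taken for Cenpa has 9.10 kb of exon, where GENCODE gives 5.86 kb for the gene. Lengths of other loci differ from GENCODE too, such as 1.26 against 2.4 kb for Pcna and 4.66 against 11.0 kb for Rrm1. These were the 2 mitotic genes with the highest levels per kb in Sham, 459.7 for Cenpf and 373 for Cenpa, while the 23 that rose stood between 7.18 and 85.7. The replication genes stood between 20.0 and 3791 per kb in Sham, with a median of 159 against 48.2 in the mitotic arm. In MI the medians were 167 and 135, so that the 2 arms lay closer together.

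**Figure D3:**
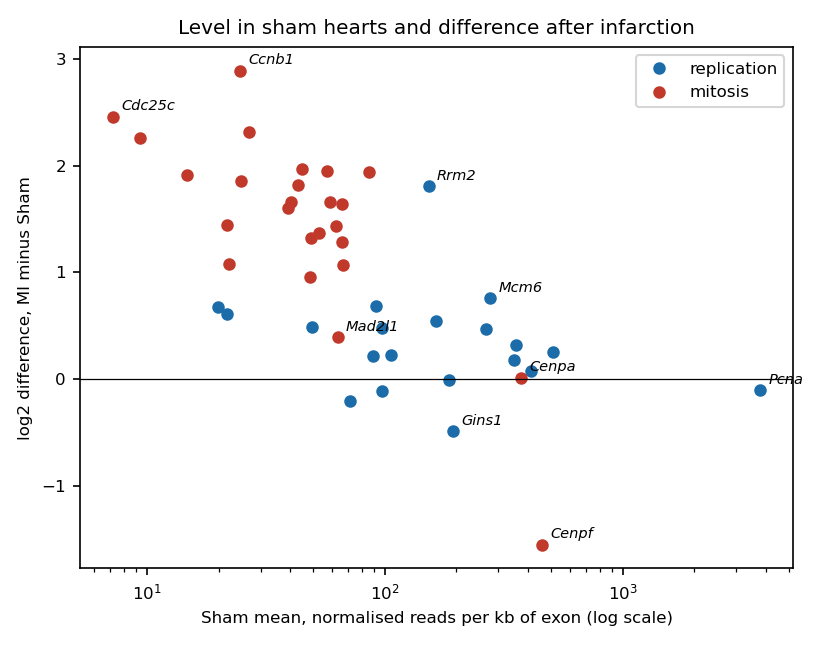
Log2 difference (MI minus Sham) of each of the 45 genes against its mean level in Sham, in normalised reads per kb of exon on a log axis, replication genes in blue and mitotic genes in red. The mitotic genes that rose lie at the left, at 7.18 to 85.7 per kb, and Cenpa and Cenpf lie at the right with the more abundant replication genes.

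All 8 genes of the spindle and of cytokinesis rose with no overlap between the groups, with a median difference of 1.38. Of all loci tested 20.8% were called higher and 19.7% were separated upward. Anln, the anillin scaffold of the contractile ring, read 319, 288, 205 and 156 normalised reads in Sham and 828, 925, 1111 and 816 in MI. Its rise of 1.97 ± 0.21 had the smallest adjusted p of the 45 genes (6.83e-05). Ect2, the exchange factor that switches on RhoA at the division plane, read 116, 102, 100.04 and 48.9 in Sham and 237, 226, 295 and 208 in MI (1.44 ± 0.26, adjusted p = 0.00134). For both genes the lowest MI library was far above the highest Sham library.

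Tpx2, which targets and activates Aurora A on spindle microtubules, read 281, 169, 210.3 and 89.9 normalised reads in Sham and 514, 654, 793 and 528 in MI (1.82 ± 0.30, adjusted p = 8.60e-04). Prc1, which bundles the microtubules of the midzone, rose by 1.65 (adjusted p = 7.17e-05), and Kif11, the kinesin that pushes the spindle poles apart, by 1.32. Kif20a and Kif23, kinesins of the midzone, rose by 1.07 and 0.96, and Nusap1, which binds spindle microtubules, by 1.08. Kif23 was the least certain of the group, with 264, 245, 318 and 136 in Sham and 351, 433, 658 and 399.7 in MI (0.96 ± 0.27, adjusted p = 0.0151). Its highest Sham library, Sham 3, came close to its lowest MI library, MI 1.

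Some loci share exon bases with a gene on the other strand, and the sources used here do not say whether the reads keep the strand. This holds for 10 of the 45 genes. The largest shares were 65.5% of the exon bases for Nusap1 (with Ndufaf1), 39.8% for Rrm1 (with an unnamed locus), 37.2% for Kif20a (with Cdc23) and 26.3% for Mki67 (with Ptpre). Smaller shares, from 0.506% to 18.9%, were found for Mcm3, Mcm7, Gins2, Ccne2, Ccna2 and Cdc20. Reads of such a pair cannot be told apart in the shared bases. Genes outside the 45 were not examined for such sharing.

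The genes moved with single libraries as well as with the groups. Among the Sham libraries Sham 4 was the lowest for 35 of the 45 genes (77.8%) and Sham 1 the highest for 34 (75.6%), where over all loci tested these libraries held those places for 27.1% and 23.8%. MI 3 was the highest MI library for 41 genes (91.1%), with all 20 replication genes among them, against 24.5% of all loci. The median gene of the mitotic arm stood at 0.45, 0.16, -0.06 and -0.69 in Sham 1 to 4 and at 1.43, 1.66, 1.97 and 1.40 in MI 1 to 4, on the log2 scale against the Sham mean. For the replication arm the same values were 0.13, 0.05, 0.02 and -0.14 in Sham and 0.15, 0.27, 0.59 and 0.29 in MI. The 2 arms thus ordered the Sham libraries alike, and both had MI 3 as their highest library. Mitotic genes varied more among the Sham hearts, with a median coefficient of variation of 33.2%, against 12.98% for the replication genes and 13.5% for all loci tested. In MI the medians were 22.5%, 11.7% and 12.1%. Sham 4 was also the library with the fewest reads and the Sham library whose description names an infarct, and the part of depth in its low values was not tested.

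Ratios within a library compare the arms without scaling between libraries, apart from the 1 added to each normalised value before the ratio. The log2 ratio of Top2a to Pcna was -2.61, -3.04, -3.67 and -4.71 in Sham and -1.60, -1.32, -1.21 and -1.72 in MI, a difference of 2.04 ± 0.47 (SE). That of Cdk1 to Mcm2 was -3.00, -3.26, -3.37 and -4.11 in Sham and -1.61, -1.38, -1.17 and -1.60 in MI, a difference of 2.00 ± 0.26. That of Ccnb1 to Ccne1 was -1.46, -1.74, -1.66 and -3.27 in Sham and 0.72, 1.004, 0.56 and 0.22 in MI, a difference of 2.66 ± 0.45. In all 3 pairs the mitotic gene gained on its replication partner and the groups did not overlap. Ccnb1 gave fewer reads than Ccne1 in every Sham library and more in every MI library. Each pair had an exact 2-sided permutation p of 0.0286, the smallest that 4 against 4 libraries allow, and 0.0286 after adjustment over the 3 pairs. The 3 pairs were chosen with earlier results of these data known, so these p-values are not independent evidence.

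**Figure D4:**
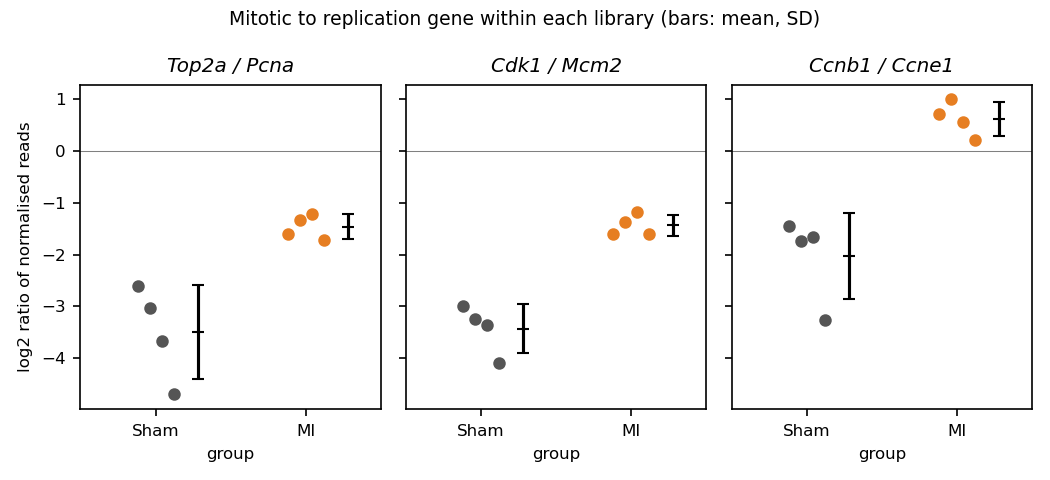
Log2 ratio of normalised reads, with 1 added to each value, of a mitotic gene to a replication gene within each library. Each library is 1 point, with replicates 1 to 4 from left to right, and the mean with its SD stands beside each group. All MI points lie above all Sham points in the 3 panels, and Sham 4 is the lowest point of each.

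Other genes of the same steps were read on 9 lists. Of their 162 genes 154 had a locus to themselves, and all 154 were tested. In all 67 rose, 21 fell and 66 were not called, with a median difference of 0.22, where 20.8% of all loci tested were called higher and 20.1% lower. All 17 mitotic kinesins and spindle factors rose (median 1.62), and 14 of 21 kinetochore and spindle checkpoint genes rose and 2 fell (median 1.01). For the lists of replication, origin recognition and firing had 8 higher and 3 lower of 22 (median 0.22), polymerases, clamp loading and ligation 5 and 5 of 21 (0.09), and nucleotide supply 2 and 3 of 10 (0.07). The shares of the last 2 lists lay near those of all loci. With scaling to equal totals the calls over all lists became 113 higher and 7 lower, where all loci had 44.4% higher and 7.81% lower.

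Among the genes of origin firing, Clspn, which codes for the checkpoint mediator claspin, rose by 1.62 ± 0.31, Ticrr, an initiation factor, by 1.34 ± 0.32, and Dbf4, the activator of the Cdc7 kinase, by 0.80 ± 0.15. Gmnn, geminin, the inhibitor of Cdt1, fell by 0.56 ± 0.11 on the log2 scale, from 4805 ± 745 normalised reads (SD, n = 4) in Sham to 3235 ± 177 in MI. Thus the inhibitor and its target Cdt1 were called in opposite directions. The call of Cdt1 was lost in 5 of the 8 fits that leave out 1 library. Mcm8, a helicase of repair, fell by 0.52 ± 0.13, and Orc3, a subunit of the origin recognition complex, by 0.22 ± 0.06. With scaling to equal totals the call of Mcm8 ended and the sign of Orc3 turned (0.086). Among the polymerase genes Dna2, a nuclease of the lagging strand, rose by 0.60 ± 0.15 and Rfc5, a clamp loader subunit, by 0.48 ± 0.12, while Pold2, a subunit of polymerase delta, fell by 0.46 ± 0.08, a call that ended with equal totals (-0.15).

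In nucleotide supply outside ribonucleotide reductase, Mthfd2, a mitochondrial folate enzyme, read 273, 225, 500.2 and 188 normalised reads in Sham and 949, 916, 794 and 789 in MI, a rise of 1.64 ± 0.25. Sham 3 stood above the other Sham libraries and below all MI libraries. Dck, deoxycytidine kinase, rose by 0.57 ± 0.11, and Dut, the dUTPase, fell by 0.66 ± 0.08 on the log2 scale (adjusted p = 1.38e-04), to 0.630 times its Sham mean.

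The kinetochore list also held genes on both sides. Nuf2, of the Ndc80 complex, read 99.1, 64.9, 53.4 and 23.7 normalised reads in Sham and 232, 291, 352 and 202 in MI (2.28 ± 0.37). Spc25, its partner in that complex, rose by 1.86 ± 0.26, and Cenpi, of the inner kinetochore, by 2.11 ± 0.28. Spc24, the partner of Spc25, went the other way, with 622, 508, 713 and 512 in Sham and 273, 352, 362 and 267 in MI. It fell by 0.91 ± 0.15 on the log2 scale (adjusted p = 0.00102), with no overlap between the groups. Per kb of exon Spc24 stood at 197 in Sham against 11.2 for Spc25 and 21.8 for Nuf2, and so was the highest of these genes. The loci of Spc25 and Nuf2 have 7.555 and 2.762 kb of exon, where GENCODE gives 3.188 and 6.341 kb. Sgo2a, a shugoshin that protects cohesion at centromeres, fell by 0.74 ± 0.15, with 422 per kb in Sham.

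In the condensin and cohesin list 6 of 15 rose and 2 fell (median 0.03). These are 40% and 13.3%, against 20.8% and 20.1% of all loci tested. Ncapg and Ncaph, subunits of condensin I, rose by 1.61 ± 0.35 and 0.87 ± 0.22, and Espl1, separase, which cuts cohesin, by 1.32 ± 0.20. Pttg1, securin, which holds separase inactive, read 7948, 7112, 8549 and 7265 normalised reads in Sham and 4550.2, 5298, 5094 and 5110.0 in MI. It fell by 0.62 ± 0.08 on the log2 scale (adjusted p = 1.99e-04), so separase and its inhibitor were called in opposite directions. The locus taken for Pttg1 has 6.945 kb of exon, where GENCODE gives 2 kb for the gene. The part of the added bases in its fall was not tested. Ncaph2, of condensin II, fell by 0.24 ± 0.07, and its sign turned with equal totals (0.064). The anaphase-promoting complex is the ligase that ends mitosis, and of the 12 tested genes of its list 1 rose and 1 fell. Each is 8.33%, under the shares of all loci. Ube2c, its E2 enzyme, rose (2.04 ± 0.28), and Anapc13, a small subunit, fell by 0.48 ± 0.11 on the log2 scale. The call of Anapc13 ended with equal totals (-0.17), and the other 10 genes were not called. Among the spindle genes Hmmr, which organises spindle poles, rose by 2.75 ± 0.39, Ckap2, a microtubule-binding protein, by 2.57 ± 0.48, and Kif2c, a kinesin that shortens microtubules, by 2.42 ± 0.43.

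**Figure D5:**
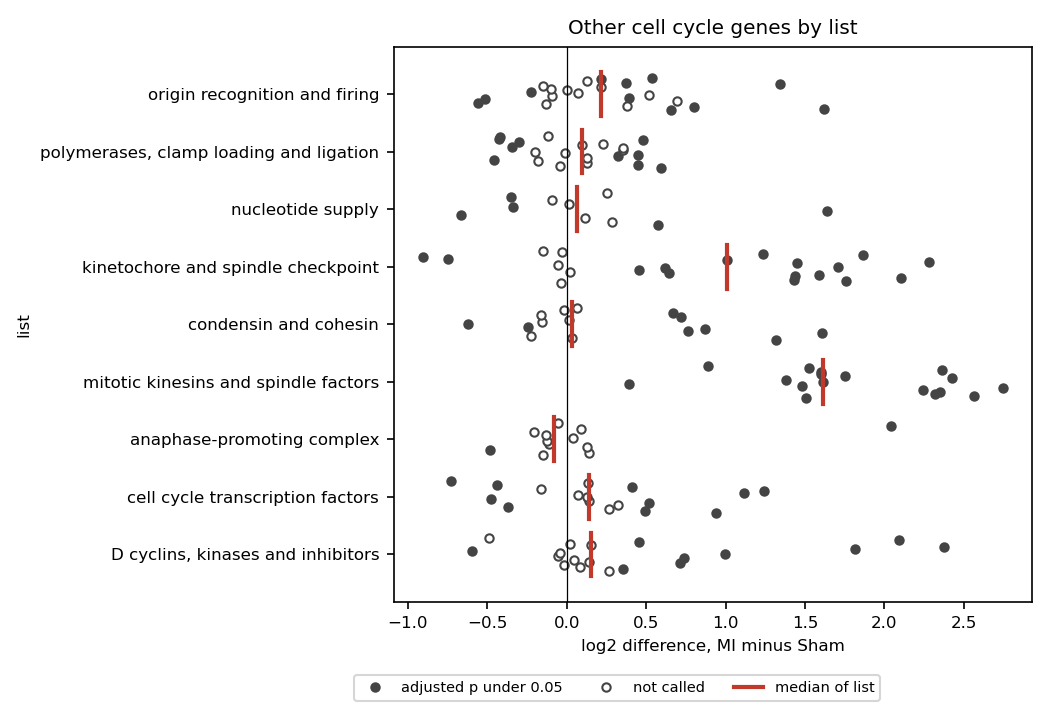
Log2 difference (MI minus Sham) of 154 further cell cycle genes, 1 row per list and 1 point per gene, filled where the adjusted p is under 0.05, with the list median as a red bar. The 17 mitotic kinesins and spindle factors all lie right of 0, and the polymerase and nucleotide lists spread to both sides.

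Of 17 cell cycle transcription factors 6 rose and 4 fell (median 0.14), against 20.8% and 20.1% of all loci tested, so the share that fell lay near that of all loci. E2f1, E2f4 and Foxm1 were listed too, but their loci also hold another gene and they were left out. Myc, which drives growth and cell cycle entry, read 346, 410.0, 439 and 334 normalised reads in Sham and 780.1, 848, 996 and 997 in MI (1.24 ± 0.13, adjusted p = 5.13e-05). Mybl2, which codes for B-Myb, rose by 1.11 ± 0.32 (adjusted p = 0.0163), with 1 MI library inside the Sham range, and E2f2, an activating E2F, by 0.94 ± 0.16. The 4 that fell were Rbl2, which codes for the p130 pocket protein (-0.44 ± 0.06), Lin52, of the DREAM core (-0.47 ± 0.08), Tfdp2, a partner of E2F factors (-0.73 ± 0.13), and E2f6, a repressor E2F (-0.37 ± 0.09). With scaling to equal totals the calls of Rbl2 (-0.13), Lin52 (-0.17) and E2f6 (-0.059) ended. The locus taken for Lin52 has 13.9 kb of exon, where GENCODE gives 3.11 kb for the gene.

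Of 19 genes on the list of D cyclins, kinases and inhibitors 8 rose and 1 fell (median 0.15). These are 42.1% and 5.26%, against 20.8% and 20.1% of all loci tested. Inhibitors of the cyclin-dependent kinases were called in both directions. Cdkn2b, which codes for the inhibitor p15, read 26.3, 31.9, 35.2 and 33.1 normalised reads in Sham and 186, 137, 155 and 201 in MI. It had the largest rise of the list (2.38 ± 0.19, adjusted p = 1.25e-05), and its 4 Sham libraries lay close together. Cdkn2a, which codes for p16 and p19Arf, read 9.55, 19.4, 17.1 and 9.46 in Sham and 57.0, 37.9, 52.7 and 50.6 in MI (1.82 ± 0.30, adjusted p = 8.16e-04). Cks2, a small subunit of Cdk complexes, rose by 2.09 ± 0.30, and Cdkn1c, the inhibitor p57, fell by 0.60 ± 0.13 on the log2 scale.

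Markers of other cells differed between the same groups. Their counts stand against 20.8% of all loci tested called higher and 20.1% called lower. All 8 fibroblast markers rose, with a summed level of 36267.5 to 41046.5 normalised reads per kb in Sham and 95962.4 to 143916 in MI. Of the macrophage markers 4 of 5 rose (2632 to 3301 in Sham, 3613 to 4465 in MI), as did all 6 T cell markers (54.5 to 85.3, then 136 to 203), all 5 B cell markers (119 to 206, then 174 to 468) and the 5 neutrophil markers tested (249 to 578, then 1042 to 4378). Of the smooth muscle and pericyte markers 4 of 7 rose (24715.3 to 28460.6, then 26730.6 to 33471.8). None of 6 endothelial markers was called (17115.4 to 22383.7, then 18728.5 to 21820.9). Cardiomyocyte markers fell in 4 of 6 (1522620 to 1903140 in Sham, 1152120 to 1385050 in MI), and 1 of 3 markers of red blood cell precursors fell (23594.3 to 76501.4, then 15489.7 to 39750.7). No marker with a locus was at 0 in all libraries. The part of cell makeup in the differences of the 45 genes was not tested. MI 3, the highest MI library for most members, had the highest sum of the MI libraries for red blood cell precursors (39750.7) and for no other marker list, and the lowest for neutrophils (1042) and endothelial cells (18728.5). Sham 4, the lowest Sham library for most members, had the lowest macrophage sum of the Sham libraries (2632) and the highest neutrophil (578) and B cell (206) sums.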

How the data were processed

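Per the labels' protocols, poly(A) RNA was sequenced from both ends, 100 bases from each. The submitters' processing notes name mm9, DESeq, HTSeq 0.5.4p2, Cufflinks 2.0.2 and TopHat2 2.0.5, without roles. The deposited table holds a normalised signal per locus and library. All values (100%) were whole multiples, within 1e-06, of 1 step per library, so the authors' signal is reads divided by 1 size factor per library, and the reads were recovered by multiplying back. Replicates are stated to be biological, and libraries of a group were never identical within sampling noise (chi-square per degree of freedom 29.7 to 147).

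Loci were named by matching their intron and exon lengths to GENCODE M21 genes on the same chromosome and strand, and loci that hold another protein-coding gene were dropped. Members, gene lists and pairs were chosen with earlier results of these data known.

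The test was limma 3.58.1 (R 4.3.3) with an intensity trend on log2(value + 1) of the signal, MI against Sham, 2-sided, over 19186 loci with a mean of at least 10, with Benjamini-Hochberg adjustment over all of them and a threshold of 0.05. Changes of low loci are understated by the pseudocount of 1. A value after ± beside a difference is its standard error. edgeR 4.0.16 (quasi-likelihood) on the recovered reads called 7937 loci, where limma called 7854. Alternatives were a pseudocount of 5, no filter, a mean of at least 50, TMM, total scaling with and without the mitochondrial chromosome, edgeR, DESeq2 1.42.0, a replicate block and leaving out each library. Pair ratios were tested by exact permutation with scipy 1.17.1. Scripts were tested on simulated data. A count of 0 allows up to 3 reads (1.99 to 4.73 normalised reads), which covers counting error only.

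Values in every library are given, in each of 7 role groups, for the 2 called genes with the largest difference and the gene with the largest p, for the pair genes, for Mki67, Aurkb, Anln and Ect2, and for genes that fell. From each of the 9 lists the 3 called genes with the largest difference and those called against the majority are named.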

Additional observations from a re-analysis of the deposited data

Results flagged for a closer look

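In 8 of the 166 groups of 4 libraries examined, over the members and named genes, 1 library lay far from the other 3, by Dixon's test at 95%. Chance gives this in about 1 of 20 groups when the groups are independent. These genes were read in the same libraries and moved together, so the number cannot be set against that rate. MI 3 was the high library in 5 of them. It read 475 normalised reads for Ccne2, where the other MI libraries were at 297, 350.0 for Aurkb (others 184 to 190.2), 386 for Birc5 (269.8 to 277), 81.5 for Ticrr (44.5 to 49.4) and 426 for Ncaph (309.5 to 328). Pola1 was high in Sham 2, at 1002 against 777 to 791. Cenpi was low in Sham 4, at 18.9 against 41.0 to 45.4, and Anapc13 was low in MI 1, at 2478 against 3027 to 3128.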

How the results depend on the processing

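The mitotic arm kept 22 to 24 genes higher in every alternative run. The replication arm depended on the scaling. With totals outside the mitochondrial chromosome made equal, it had 12 genes higher, 0 lower and a median of 0.48, the median over the 9 lists was 0.41, and all loci had 6368 higher and 2145 lower. With all totals made equal the values were 15, 0 and 0.60, the lists had 113 higher, 7 lower and a median of 0.53, and all loci had 8525 higher and 1498 lower. The first of these scalings raised the median of all loci by 0.19 and the second by 0.30. Under the second, Orc3 (0.086) and Ncaph2 (0.064) changed sign. Leaving out 1 library gave 3 to 10 replication genes higher and 0 to 1 lower, with 0 lower without MI 1 or MI 4. The pair ratios then differed by 1.64 to 2.34 for Top2a to Pcna, 1.77 to 2.14 for Cdk1 to Mcm2 and 2.25 to 2.85 for Ccnb1 to Ccne1. Their adjusted exact permutation p was 0.0571, the smallest that 3 against 4 libraries allow.

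Libraries with the same replicate number did not deviate together in every pair (correlations 0.146, 0.272, 0.160 and -0.000918). With 4 libraries of the other group to match, 5 of 8 libraries correlated best with their own number. Whether the numbers mark pairs or a shared batch was not tested. The labels state no pairing, so the main fit used none. A fit with the replicate number as a block gave 7 replication genes higher and 1 lower, 23 mitotic genes higher and 1 lower, and 63 higher and 22 lower over the 9 lists, against 67 and 21 without it. Depth limits Cdc25c most, which had 2 reads in Sham 4.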

Other observations

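Cdc6 and Top2a lie close to each other on chromosome 11 (chr11:98769203-98785256 and chr11:98854261-98885503 in mm9), a pair that was picked after its values were seen. Cdc6, of the replication arm, differed by 0.68 ± 0.31 (adjusted p = 0.105 in limma) and Top2a, of the mitotic arm, rose by 1.94 ± 0.38 (adjusted p = 0.00237). The difference between the 2 genes was not tested.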
